A study of Homo sapiens and Mus musculus with 29 samples.

Results

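Expression of 9 genes of ceramide and sphingolipid metabolism was followed across orthotopic HPAF-II tumors and their metastases. HPAF-II is an established human pancreatic ductal adenocarcinoma line of the classical subtype. The enzymes were the ceramidases ACER2, ACER3 and ASAH1, the sphingomyelinases SMPD1 and SMPD3, the sphingosine kinases SPHK1 and SPHK2, the ceramide synthase CERS6 and the glucosylceramide synthase UGCG. They are 9 of the 58719 genes in the expression table and were picked by symbol, with the difference between HNF4G-KO and control tumors known, in which ACER2 and SMPD3 stood out. That difference is therefore described below without a test. Comparisons that share the control or the HNF4G-KO tumors with it are described by their values and counts. P-values for the enzymes are given only where neither group compared is part of that difference.

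Ceramide is the hub of sphingolipid metabolism. Ceramide synthases build it, sphingomyelinases release it from sphingomyelin, and glucosylceramide synthase diverts it into glycosphingolipids. Ceramidases split it into a fatty acid and sphingosine, which sphingosine kinases turn into sphingosine 1-phosphate. Ceramide is generally linked to growth arrest and cell death, and sphingosine 1-phosphate to survival and migration.

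All cells were injected into the pancreas of NSG mice, which lack functional lymphocytes and natural killer cells. The HNF4G edit was made by electroporation of Cas9 protein and guide RNA. Control cells received Cas9 and an empty vector (3 tumors, 3 mice). FOXA1-OE cells received Cas9 and a FOXA1 vector (3 tumors, 3 mice). HNF4G-KO cells, edited in the nuclear receptor gene HNF4G, received the empty vector (4 tumors, 4 mice, and 2 peritoneal metastases from 2 of those mice). HNF4G-KO + FOXA1-OE cells received both changes. They gave 5 tumors from 4 mice and 4 metastases from 3 mice, found in the spleen, in fat (2 libraries) and in the peritoneum. HNF4G-KO cells were a pool of 3 single-cell clones with heterozygotic frameshift mutations, so that a clonal difference and the edit cannot be told apart. Tumors 2 and 3 of the HNF4G-KO + FOXA1-OE group shared a mouse and were averaged, as were the spleen metastasis and 1 fat metastasis of another mouse, so that n counts mice. No source used here says that the cells injected into the mice of a group came from separate cultures, so p-values measure the spread between mice.

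Values are reads per kilobase of gene model and per megaread, or RPKM, as deposited. Whole reads could be recovered for all 9 enzymes, and the totals behind the RPKM values were 33.1 to 69.5 M reads a library, with a median of 54.5 M. Differences are in log2(RPKM + 1), which understates the fold change of a gene at low level. "Called" means a limma Benjamini-Hochberg adjusted p under 0.05 over all 14269 genes tested (14099 in the fits with metastases). The limma spread was pooled over all groups of a fit, so tumors that served in the choice of the enzymes enter it.

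The labels were checked first. FOXA1 read 0.93, 0.68 and 0.52 RPKM in control tumors. The libraries labeled FOXA1-OE read 6.32, 8.18 and 0.76 RPKM, so the third of them was at the control level. The HNF4G-KO + FOXA1-OE tumors read 4.65 to 23.15 RPKM. Among HNF4G-KO + FOXA1-OE metastases FOXA1 was at 0.53, 17.93, 1.30 and 1.55 RPKM, high only in the fat metastasis numbered 2. HNF4G transcript was at 2.48 to 3.47 RPKM in control tumors and at 5.72 to 8.42 RPKM in HNF4G-KO tumors, with no overlap. It was at 3.04, 2.26 and 0.49 RPKM in FOXA1-OE tumors and at 7.09, 6.16, 6.67, 3.94 and 1.69 RPKM in HNF4G-KO + FOXA1-OE tumors, which overlapped. A whole-gene value does not check a frameshift edit. The 6 ductal epithelium markers summed to 3025 to 5985 RPKM in every library. Summed stroma markers (10 genes) ran from 58.9 to 196 RPKM in control tumors, 35.8 to 160 in FOXA1-OE tumors, 51.3 to 73.1 in HNF4G-KO tumors and 51.2 to 118 in HNF4G-KO + FOXA1-OE tumors. In the metastases they ran from 77.01 to 418 RPKM with HNF4G-KO and from 75.0 to 217 RPKM with both changes. The 10 acinar genes reached 852 RPKM in 1 control tumor and at most 23.5 RPKM in HNF4G-KO tumors. The 8 leukocyte markers summed to 14.99 to 19.7 RPKM in control and FOXA1-OE tumors and to 4.81 to 9.97 RPKM in tumors of the HNF4G-KO labels. Of these, CD14 ran from 2.68 to 18.1 RPKM over all libraries, while the defining leukocyte gene PTPRC never passed 0.33 RPKM. Whether host cells had a part in the differences below was tested for the stroma list alone, by adding it to the model. In tumor RNA, fewer cells of a type and less RNA per cell cannot be told apart.

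ACER2, a Golgi alkaline ceramidase, was low in every tumor without HNF4G-KO. The control tumors held 1.05, 0.41 and 0.25 RPKM and the FOXA1-OE tumors 0.26, 0.43 and 0.20 RPKM, from 18 to 134 reads a library. The HNF4G-KO tumors held 4.56, 4.43, 5.32 and 6.43 RPKM, from 539 to 923 reads. The HNF4G-KO + FOXA1-OE tumors held 2.63, 5.71, 1.77, 3.15 and 2.93 RPKM. No tumor of either HNF4G-KO label overlapped a tumor without it. The mean was 9.08-fold higher in HNF4G-KO than in control tumors, the contrast by which the gene was chosen (5.18 ± 0.92, SD, n = 4, against 0.57 ± 0.42 RPKM, n = 3). The tumors with FOXA1-OE did not enter that contrast. Among them ACER2 was 10.4-fold higher with HNF4G-KO, at 3.11 ± 0.47 (n = 4) against 0.30 ± 0.12 RPKM (n = 3). This difference of 1.62 ± 0.18 (SE) in log2(RPKM + 1) was called (limma adjusted p = 0.000293). ACER2 passed the filter of a mean of 1 RPKM only through the tumors with HNF4G-KO, where it was high. Without that filter, over 44505 genes, it was called as well.

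ACER3, the alkaline ceramidase of the endoplasmic reticulum and Golgi, followed at a smaller scale. It was at 4.30, 4.28 and 3.63 RPKM in control tumors and at 3.60, 3.66 and 3.20 RPKM in FOXA1-OE tumors. With HNF4G-KO it was at 6.62, 6.66, 7.36 and 7.66 RPKM, and with both changes at 6.31, 8.19, 4.98, 6.15 and 5.07 RPKM. Again the tumors with and without the HNF4G-KO label did not overlap. With FOXA1-OE in both groups the mean was 1.73-fold higher under HNF4G-KO (6.03 ± 0.67 against 3.49 ± 0.25 RPKM), a called difference of 0.64 ± 0.12 (limma adjusted p = 0.00796).

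ASAH1, the lysosomal acid ceramidase, ranged from 2.54 to 3.22 RPKM in control tumors and from 3.58 to 4.94 RPKM in HNF4G-KO tumors. Between the groups with FOXA1-OE it differed by 0.11 ± 0.15, with ranges of 2.27 to 3.42 and 2.30 to 2.93 RPKM (limma adjusted p = 0.697). The 95% interval of that difference ran from -0.21 to 0.42.

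The sequences just upstream of both called ceramidase genes are shown as a description. They are RefSeq promoter windows on GRCh38.p14, printed 5′ to 3′ on the plus strand and ended before the gene model begins, with GC boxes (GGGCGG or its reverse complement CCGCCC) in capitals. ACER2 lies on chromosome 9 (19409009 to 19452505, plus strand) and ACER3 on chromosome 11 (76860859 to 77026797, plus strand).

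ACER2, chr9:19408759-19409008: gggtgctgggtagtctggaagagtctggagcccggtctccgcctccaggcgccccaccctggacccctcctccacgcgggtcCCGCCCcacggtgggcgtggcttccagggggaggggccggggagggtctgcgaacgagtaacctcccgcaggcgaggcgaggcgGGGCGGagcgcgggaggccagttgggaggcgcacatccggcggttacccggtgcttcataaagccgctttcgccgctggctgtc
ACER3, chr11:76860668-76860858: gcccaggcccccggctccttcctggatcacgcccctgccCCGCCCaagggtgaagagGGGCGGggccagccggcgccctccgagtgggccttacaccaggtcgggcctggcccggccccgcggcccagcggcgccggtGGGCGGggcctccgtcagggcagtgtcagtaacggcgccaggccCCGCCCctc

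ACER2 had 2 GC boxes and 72.4% G or C in 250 bases, and ACER3 had 4 GC boxes and 79.1% in 191 bases. GC boxes were present in 42.6% of the 35116 promoter windows of the same table (250 bases each), whose median G or C content was 58.0%. Windows were at hand for 7 of the 9 enzymes, and 6 of these held a GC box. The HNF4 motif CAAAGTCCA (0.325% of all windows) and the FOXA motifs TGTTTAC (2.98%) and TGTTTGC (3.23%), searched on both strands, matched none of the 7. The nuclear receptor half-site AGGTCA (12.1% of windows) matched SMPD1 alone, in 2 places. These counts describe letters in a short window and say nothing of where a factor binds.

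SMPD3, neutral sphingomyelinase 2, releases ceramide at the plasma membrane and Golgi. It had the largest difference in log2(RPKM + 1) of the 9 enzymes between HNF4G-KO and control tumors. By ratio of means ACER2 was ahead, at 9.08-fold against 6.70-fold for SMPD3. With a pseudocount of 0.1 ACER2 was ahead as well (3.14 against 2.74). Control tumors held 2.73, 1.34 and 1.24 RPKM and HNF4G-KO tumors 15.98, 10.30, 9.57 and 11.60 RPKM. The FOXA1-OE tumors held 1.39, 1.94 and 0.90 RPKM and the HNF4G-KO + FOXA1-OE tumors 4.93, 8.24, 1.09, 6.38 and 6.32 RPKM. The tumor at 1.09 RPKM lay inside the FOXA1-OE range, although its pair from the same mouse had the highest value of the group, so the groups overlapped by library and not by mouse. With FOXA1-OE the mean over mice was 3.96-fold higher under HNF4G-KO (5.57 ± 0.90 against 1.41 ± 0.52 RPKM), a called difference of 1.37 ± 0.25 (limma adjusted p = 0.00495). SMPD3 lies on chromosome 16 (68358327 to 68448508, minus strand). Of its exon bases, 27.7% overlap PRMT7 on the other strand and 10.8% overlap ENSG00000279693 on the same strand. How the counting treated strand is not given in the sources used here. PRMT7 was at 2.51 ± 0.22 RPKM in HNF4G-KO and 3.41 ± 0.19 RPKM in control tumors. Every HNF4G-KO mouse was lower, as for 3039 of the 14269 genes tested. Between the groups with FOXA1-OE it overlapped, at 3.36 ± 0.96 RPKM with both changes and 3.95 ± 0.89 RPKM with FOXA1-OE. Whether reads of the overlapping genes entered the SMPD3 values was not tested.

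SMPD1, the lysosomal acid sphingomyelinase, was at 8.30 to 12.43 RPKM in control tumors and at 8.19 to 13.47 RPKM in HNF4G-KO tumors. It was at 10.18 to 12.34 RPKM in FOXA1-OE tumors and at 11.74 to 19.16 RPKM with both changes, a difference of 0.33 ± 0.20 that did not pass the threshold (limma adjusted p = 0.345). The share of SMPD3 in the summed RPKM of both sphingomyelinases went from 12.1 to 18.01% in control tumors and 6.78 to 15.1% in FOXA1-OE tumors to 46.3 to 55.7% in HNF4G-KO tumors. It was 27.7% ± 6.53 with both changes against 11.3% ± 4.19 with FOXA1-OE (4 and 3 mice). The ACER2 share of the 3 ceramidases was 25.2% ± 2.99 against 4.53% ± 1.40 in the same comparison. Both shares gave a two-sided exact permutation p of 0.0571, the smallest that 4 against 3 mice allow.

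**Figure D1:**
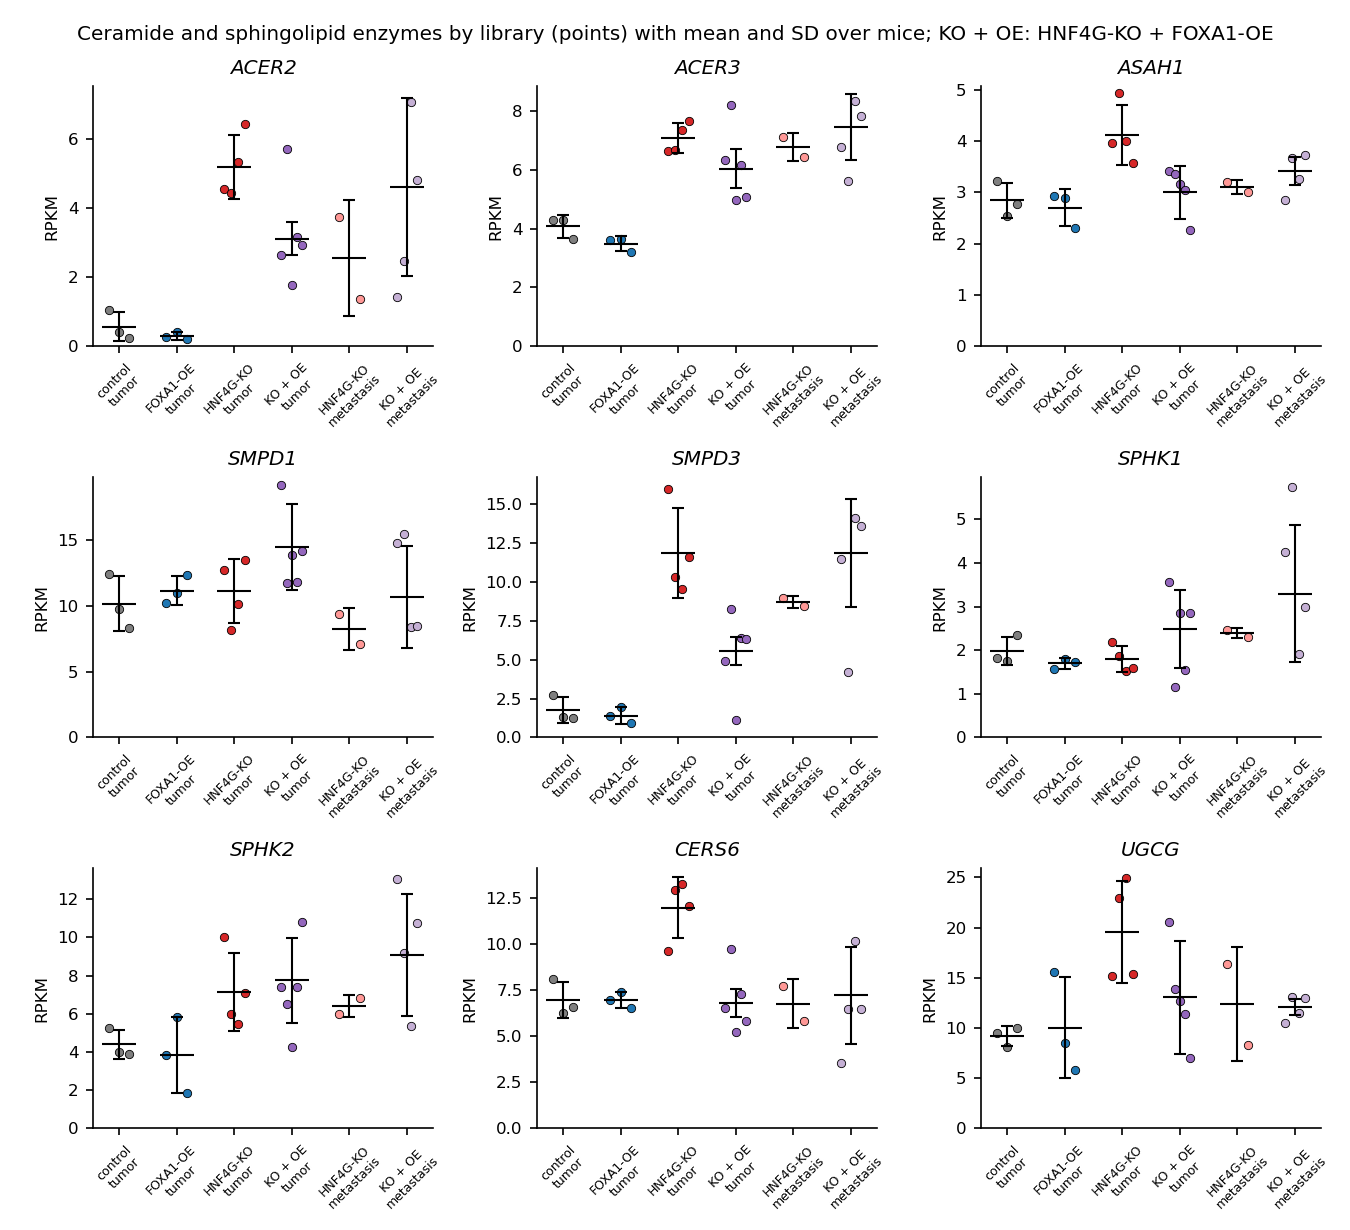
RPKM of each of the 9 enzymes in every library (points), with the mean and SD over mice (bars), by group, with tumors of the 4 groups first and then the metastases (KO + OE stands for both changes). ACER2 sat at or under 1.05 RPKM in the 6 tumors without HNF4G-KO and at 1.38 RPKM or more in every library with it.

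SPHK2, the mainly nuclear and mitochondrial sphingosine kinase, was at 5.26, 4.00 and 3.91 RPKM in control tumors and at 10.01, 5.97, 5.46 and 7.11 RPKM in HNF4G-KO tumors. It was at 3.84, 5.82 and 1.86 RPKM in FOXA1-OE tumors and at 7.40, 6.49, 4.28, 7.40 and 10.78 RPKM with both changes. These groups overlapped through the FOXA1-OE tumor at 5.82 RPKM, and the difference of 0.90 ± 0.28 was not called (limma adjusted p = 0.0673). Without that tumor, with every sample moved to the same median, or without the tumor at 4.28 RPKM it was called. Without the FOXA1-OE tumor at 1.86 RPKM, which had FOXA1 at the control level, it was 0.57 (limma adjusted p = 0.209).

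SPHK1, the cytosolic kinase, makes sphingosine 1-phosphate near the plasma membrane. It was at 1.75 to 2.35 RPKM in control tumors, at 1.53 to 2.18 RPKM with HNF4G-KO, at 1.56 to 1.81 RPKM with FOXA1-OE and at 1.16 to 3.57 RPKM with both. The difference under FOXA1-OE was 0.32 ± 0.19 (limma adjusted p = 0.316). The SPHK1 share of the kinase pair was 24.6% ± 6.76 with both changes and 33.6% ± 12.9 with FOXA1-OE (two-sided exact permutation p = 0.343).

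CERS6, the synthase that prefers palmitoyl-CoA and makes C16 ceramide, was at 8.08, 6.26 and 6.60 RPKM in control tumors and at 9.60, 12.92, 13.26 and 12.05 RPKM in HNF4G-KO tumors. It was at 6.94, 7.41 and 6.55 RPKM in FOXA1-OE tumors and at 6.54, 9.73, 5.22, 7.29 and 5.85 RPKM with both changes. The higher level of the HNF4G-KO tumors thus had no counterpart between the groups with FOXA1-OE, where the difference was -0.05 ± 0.14 with a 95% interval from -0.36 to 0.26 (limma adjusted p = 0.868). CERS6-AS1, which shares 43.8% of the CERS6 exon bases on the other strand, averaged at most 0.10 RPKM in any group.

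UGCG, which makes glucosylceramide, was at 9.49, 8.14 and 10.00 RPKM in control tumors and at 15.14, 22.95, 24.94 and 15.36 RPKM in HNF4G-KO tumors. With FOXA1-OE it was at 15.61, 8.56 and 5.87 RPKM, and with both changes at 20.55, 13.87, 12.68, 11.38 and 7.04 RPKM. These last groups overlapped widely (0.36 ± 0.33, limma adjusted p = 0.540).

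Counted over the 9 enzymes, 3 (ACER2, ACER3 and SMPD3) were called higher under HNF4G-KO among FOXA1-OE tumors and none lower, beside 3.32% of all genes tested called higher and 4.54% called lower. The same 3 had every mouse with both changes above every FOXA1-OE mouse, as had 5.39% of all genes, and each gave a two-sided exact permutation p of 0.0571, the smallest possible here. Without the third FOXA1-OE library, which had FOXA1 at the control level, these 3 were called as well, and so they were with the stroma list in the model. When the fit held these groups alone, ACER2 alone was called, with limma adjusted p of 0.161 for ACER3 and 0.0639 for SMPD3. In the contrast that chose the genes, 6.18% of all genes were past the threshold and higher, and 25.1% had every HNF4G-KO mouse above every control mouse, as had 7 of the 9 enzymes. Nothing is read from that count, since the choice used those values. The comparison among FOXA1-OE tumors has the HNF4G-KO label in common with it, so calls in the higher direction were favored in advance there too. Neither its count nor the medians below are read as an excess over all genes. The median difference over the 9 was 0.36 among FOXA1-OE tumors and 0.67 in the contrast that chose them, against -0.03 and 0.01 over all genes tested.

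**Figure D2:**
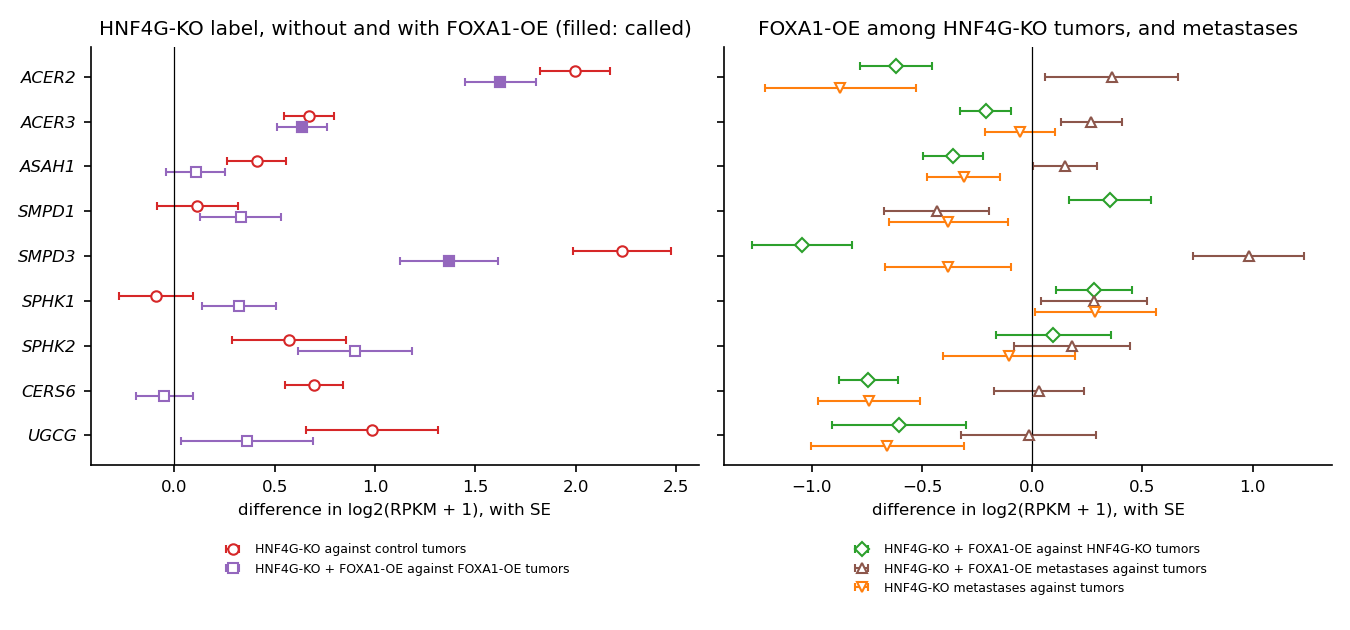
Difference in log2(RPKM + 1) with its SE (bars) for each enzyme: left, HNF4G-KO against control tumors, by which the genes were chosen (open circles, no test), and HNF4G-KO + FOXA1-OE against FOXA1-OE tumors (squares, filled where called). Right, HNF4G-KO + FOXA1-OE against HNF4G-KO tumors and both metastasis comparisons, where none was called. SMPD3 was 1.05 lower with FOXA1-OE among HNF4G-KO tumors and 0.98 higher in HNF4G-KO + FOXA1-OE metastases than in tumors.

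FOXA1-OE alone was compared with control tumors, which also served the contrast that chose the genes. No enzyme was called, and no gene of the whole table was (0% of 14269 by limma, 652 at an unadjusted p under 0.05; limma-voom on recovered reads called 0 as well, and limma without the RPKM filter called 3). The 9 differences ran from -0.25 ± 0.19 for ACER2 to 0.14 ± 0.22 for SMPD1, and SMPD3 differed by -0.18 ± 0.26.

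Among tumors with HNF4G-KO, 5 of the 9 enzymes were lower in every mouse with FOXA1-OE than in every mouse without it, beside 12.2% of all genes. These were ACER2, ACER3, ASAH1, SMPD3 and CERS6. By library only ASAH1 and SMPD3 stayed apart. HNF4G-KO + FOXA1-OE tumor 2, averaged with tumor 3 of its mouse, held ACER2 at 5.71 and CERS6 at 9.73 RPKM, inside the HNF4G-KO ranges. It held ACER3 at 8.19 RPKM, above every HNF4G-KO tumor. SMPD3 was at 47.0% of its mean in HNF4G-KO tumors (a difference of -1.05 ± 0.23). CERS6 was at 56.8% (-0.74 ± 0.13) and ACER2 at 60.0% (-0.62 ± 0.16). ASAH1 and ACER3 differed by -0.36 ± 0.14 and -0.21 ± 0.12. The HNF4G-KO tumors had served to choose the genes by their high values, so that lower values beside them are favored in advance and no p-value is given. None of the 9 was past the limma threshold, as only 0.0561% of all genes were. With the stroma list in the model SMPD3 and CERS6 were past it, and so were 1.05% of all genes.

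Against the control tumors, whose low values had entered the choice, HNF4G-KO + FOXA1-OE tumors differed by 1.38 ± 0.18 for ACER2 and by 1.19 ± 0.25 for SMPD3. These 2 of 9 were past the limma threshold, beside 2.14% of all genes, SMPD3 not when control tumor 2 or control tumor 3 was left out. Every mouse was higher for 4 of 9, these and ACER3 (0.46 ± 0.12) and SPHK2 (0.67 ± 0.28), beside 6.78%. By library SMPD3 and SPHK2 overlapped the control tumors. The interaction of both changes, which also holds the contrast that chose the genes, was -0.75 ± 0.20 for CERS6, -0.86 ± 0.35 for SMPD3 and -0.37 ± 0.25 for ACER2. No enzyme was past the threshold, beside 0.035% of all genes.

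Metastases held both called ceramidases, SMPD3 and SPHK2 at levels above every control tumor, and the other enzymes overlapped. All metastases came from HNF4G-KO cells, and the low control values had entered the choice of genes. The separation was therefore favored in advance, and its share over all genes was not counted. Between HNF4G-KO and control primary tumors, 25.1% of all genes had every mouse higher. ACER2 was at 3.73 and 1.38 RPKM in the HNF4G-KO metastases and at 1.41, 2.47, 7.06 and 4.79 RPKM in those with both changes, against at most 1.05 RPKM in control tumors. SMPD3 was at 8.95 and 8.43 RPKM and at 11.49, 4.21, 14.08 and 13.57 RPKM. ACER3 ran from 5.60 to 8.33 RPKM over the 6 metastases. SPHK2 ran from 5.37 to 13.07 RPKM, against at most 5.26 RPKM in control tumors. No control or FOXA1-OE metastasis was at hand for comparison.

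In HNF4G-KO + FOXA1-OE mice SMPD3 averaged 11.8 ± 3.46 RPKM in metastases (n = 3) and 5.57 ± 0.90 RPKM in tumors (n = 4), a 2.12-fold difference of means. Every metastasis mouse was above every tumor mouse for SMPD3 alone among the 9, beside 4.12% of all genes. The difference of 0.98 ± 0.25 was not called (limma adjusted p = 0.399), and by library the fat metastasis at 4.21 RPKM lay within the tumor range. ACER2 differed by 0.36 ± 0.30 (limma adjusted p = 0.643) and SMPD1 by -0.43 ± 0.24 (limma adjusted p = 0.535). No enzyme was called in this comparison, beside 0.00709% of all genes.

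HNF4G-KO metastases could be set against HNF4G-KO tumors for 2 and 4 mice, the latter having served in the choice. No enzyme was past the limma threshold, beside 0.0426% of all genes. Without HNF4G-KO metastasis 1, 2.5% of all genes were past it and again no enzyme. ACER2, ASAH1, SMPD3 and CERS6 were lower in both metastases than in every tumor (4 of 9, beside 21% of all genes), and SPHK1 was higher (1 of 9, beside 11.9%). CERS6 was at 7.71 and 5.82 RPKM, a difference of -0.74 ± 0.23, and ACER2 differed by -0.87 ± 0.34. ASAH1 differed by -0.31 ± 0.16, SMPD3 by -0.38 ± 0.29 and SPHK1 by 0.29 ± 0.27. The second of these metastases had the highest stroma sum of the series, 418 RPKM.

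In 4 mice a tumor and at least 1 metastasis were sequenced, giving 5 pairs. SPHK1 was higher in the metastasis in all 5 pairs, from 1.86 to 2.47 and from 1.59 to 2.31 RPKM in the HNF4G-KO mice. In the HNF4G-KO + FOXA1-OE mice it went from 3.57 to 4.25 RPKM in the spleen and 5.74 RPKM in fat, and from 1.56 to 2.98 RPKM. CERS6 was lower in all 5 pairs, though from 6.54 to 6.49 RPKM in the fat metastasis, and 5.26% of all genes were higher and 9.58% lower in all 5 pairs. ACER2 was lower in the metastasis in 4 pairs and SMPD3 in 3.

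**Figure D3:**
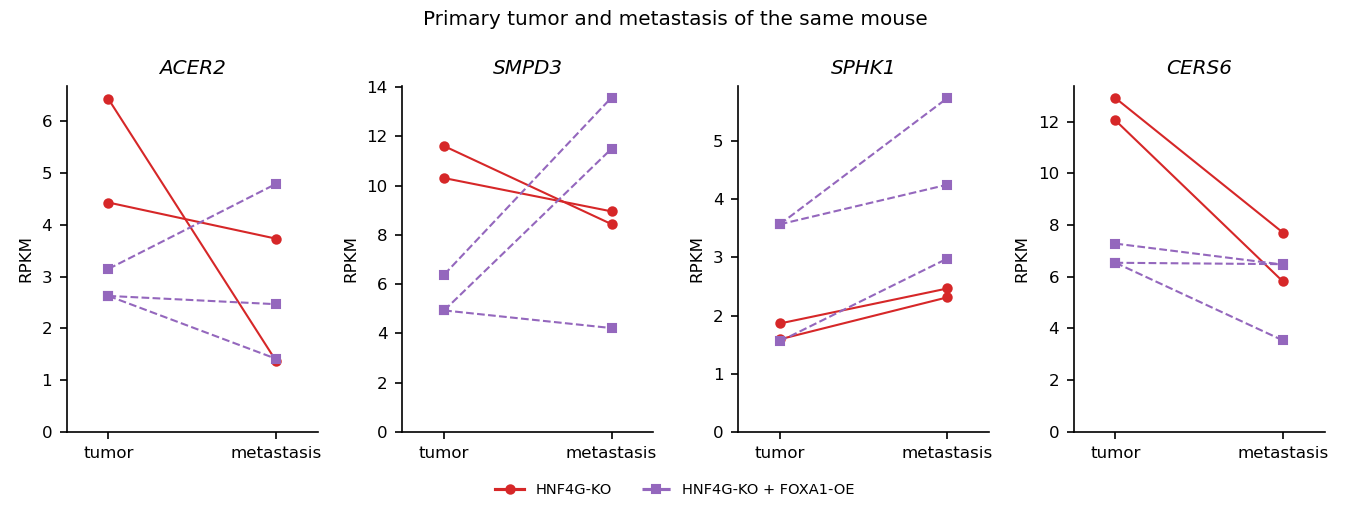
RPKM of ACER2, SMPD3, SPHK1 and CERS6 in the primary tumor and in each metastasis of the same mouse, joined by lines (solid with circles, HNF4G-KO; dashed with squares, HNF4G-KO + FOXA1-OE; a tumor with 2 metastases has 2 lines). SPHK1 goes up and CERS6 goes down along all 5 lines, while SMPD3 goes up along 2 and down along 3.

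The wider pathway was described with 63 other sphingolipid genes, of which 50 passed the RPKM filter. Among FOXA1-OE tumors, 2 of the 50 were called higher with HNF4G-KO and 1 lower, and the median difference over the 50 was 0.08. Over all genes 3.32% were called higher and 4.54% lower, so the list was called in shares near those of the whole table, and its called genes are given as single genes. SPTSSB, a small subunit of serine palmitoyltransferase, the enzyme of the first step of sphingolipid synthesis, differed by 1.37 ± 0.36 (limma adjusted p = 0.0324). GALC, the lysosomal galactosylceramidase, differed by 0.85 ± 0.19 (limma adjusted p = 0.0167). A4GALT, which makes globotriaosylceramide, differed by -1.19 ± 0.24 (limma adjusted p = 0.00911). A fit of only these groups called none of the 50.

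Against control tumors, HNF4G-KO tumors had 3 of the 50 called higher and 2 lower (A4GALT and GLA), beside 6.18% of all genes higher and 5.99% lower. HNF4G-KO + FOXA1-OE tumors had 1 called higher (SPTSSB) and 2 lower (A4GALT and GLA), beside 2.14% of all genes higher and 2.55% lower. Without control tumor 2 or control tumor 3 the 3 calls became 0, and those of HNF4G-KO against control tumors fell from 5 to 1. GLA is the lysosomal galactosidase that breaks down globotriaosylceramide. None of the 50 was called in the metastasis comparisons, for FOXA1-OE alone, or for FOXA1-OE among HNF4G-KO tumors.

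**Figure D4:**
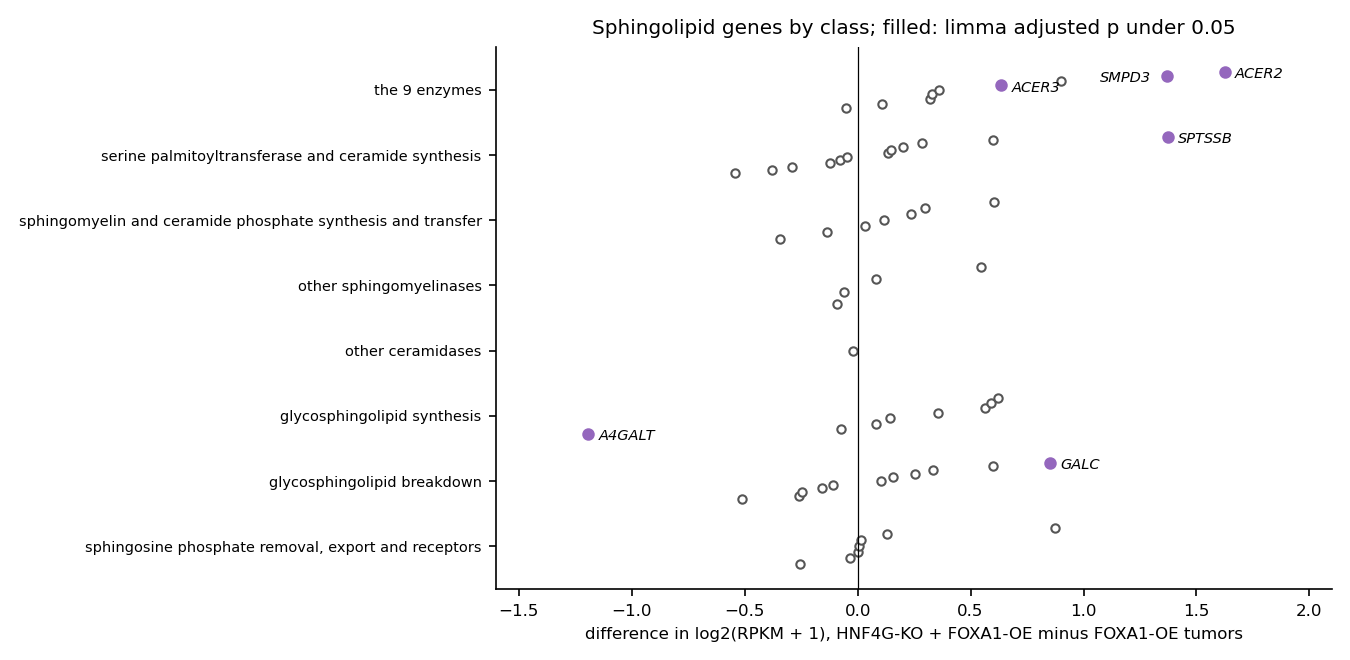
Difference in log2(RPKM + 1) between HNF4G-KO + FOXA1-OE and FOXA1-OE tumors for the 9 enzymes (top row) and the 50 other sphingolipid genes tested, by class (1 point a gene; filled and named where the limma adjusted p was under 0.05). Among the other classes SPTSSB and GALC lie to the right and A4GALT at -1.19 to the left.

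Across the 21 libraries, log2(RPKM + 1) of ACER2, ACER3 and SMPD3 moved together, with Pearson r of 0.92 for ACER2 and ACER3, 0.91 for ACER3 and SMPD3 and 0.85 for ACER2 and SMPD3. ASAH1 and UGCG had r = 0.83, and SPHK1 and CERS6 had the lowest of the 36 pairs at -0.59. These values describe libraries that share groups and mice. The libraries include the control and HNF4G-KO tumors by which the genes were chosen, so that difference enters r. No r within groups was computed. Of 14228 other genes averaging 1 RPKM or more, the closest to ACER2 were FER1L6 (r = 0.95), FRK (0.93), SP1 (0.93), FNIP2 (0.93) and LCOR (0.92). The closest to SMPD3 were MMP28 (0.95), TLCD2 (0.93), RALGPS1 (0.93) and PRR15-DT (0.93). The closest gene was EXOC1 for ASAH1 (0.94), MIDN for SMPD1 (0.83), CCDC137 for SPHK1 (0.87), CAMTA2 for SPHK2 (0.93), IKZF2 for CERS6 (0.94) and TMEM165 for UGCG (0.95).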

How the data were processed

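RNA from 21 HPAF-II tumors and metastases was sequenced as 50 bp single-end reads from a stranded mRNA kit. The authors aligned reads with STAR 2.6.1a, counted them with featureCounts 2.0.4 and deposited RPKM per gene. GRCh38 stands in the submitters' processing notes and GRCh37 in the paper's methods; coordinates here are GENCODE 44 and RefSeq, both GRCh38. Reads of mouse host cells that align to the human genome were not separated. Symbols were matched for 58250 of 58719 gene IDs. RPKM were whole multiples of a step for 99.7% of 14229 genes (tolerance 0.02), which gave reads and totals. limma 3.58.1 (R 4.3.3) was run with a trend on log2(RPKM + 1), with a pseudocount of 1, over genes averaging 1 RPKM or more, once for the primary tumors of 4 groups and once for HNF4G-KO tumors and metastases with or without FOXA1-OE. Same-mouse libraries of a kind were averaged. The limma script was tested on simulated data. Permutation tests were exact, two-sided, over mice. The enzymes, the pathway list and the markers were chosen with earlier results of these data known. Named genes were the 9 enzymes, pathway genes called in HNF4G-KO + FOXA1-OE against FOXA1-OE tumors or in metastases, the closest genes by correlation (5 for ACER2 and SMPD3, 1 for the others, of which some are not reported here), FOXA1 and HNF4G; GLA, PRMT7 and CERS6-AS1 were added after their values were seen. The mouse KPC count table was not used here.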

Additional observations from a re-analysis of the deposited data

How the results depend on the processing

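Among FOXA1-OE tumors, 3 enzymes and 3 other sphingolipid genes were called with HNF4G-KO, against 1 and 0 when only these groups were fitted, where 86 genes were called in all beside 1122. The other genes numbered 7 with the replicate block and 2 to 5 when a mouse was left out. Against control tumors, HNF4G-KO had 4 enzymes and 5 other genes past the threshold. A fit of those groups alone gave 7 and 24, the stroma list in the model gave 13 other genes, no RPKM filter 3 and the replicate block 8. When a mouse was left out the other genes numbered 1 to 4, with 1 without control tumor 2 or control tumor 3, and all calls fell from 1736 to 284 without control tumor 2. Among HNF4G-KO tumors, 0 enzymes and 0 other genes were called for FOXA1-OE, or 2 and 1 with the stroma list, where all calls went from 8 to 150. HNF4G-KO + FOXA1-OE against control tumors had 2 enzymes called, or 1 in a fit of those groups, with libraries of a mouse kept separate, or with the replicate block, and 1 to 3 when a mouse was left out. Its 3 other genes became 1 without the RPKM filter or in a fit of those groups, 0 to 2 when a mouse was left out (0 without control tumor 2 or control tumor 3), and 5 with samples moved to the same median or without HNF4G-KO + FOXA1-OE tumor 3 (chosen after seeing the data). In HNF4G-KO metastases against tumors 6 genes were called in all, 353 without HNF4G-KO metastasis 1 and 74 with the mouse as a block, with 0 enzymes each time. The causes were not tested.

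Differences in log2(RPKM + 1) that changed sign were small. CERS6 among FOXA1-OE tumors was 0.0029 with the replicate block and 0.0485 without HNF4G-KO + FOXA1-OE tumor 3, and ran from -0.0877 to 0.0058 when a mouse was left out. SMPD3 for FOXA1-OE alone was 0.0536 with the stroma list and ran from -0.339 to 0.0514 when a mouse was left out. The interaction of ACER2 was 0.0562 by limma-voom on recovered reads (chosen after seeing the data). Of 19 same-number pairs of tumors, 7 correlated above 0.1, with r from -0.53 to 0.50. No r was computed for pairs of different numbers, so whether the number pairs the samples is not settled. With the tumor number as a block, 3 enzymes were again called among FOXA1-OE tumors, beside 2414 genes in all. Depth limits ACER2 in the tumors without HNF4G-KO, where 18 to 134 reads lay behind each value. Of 942 recomputed values, 882 were labeled the same as the main value. For differences between HNF4G-KO and control tumors this meant within 1 SE, whatever the side of the threshold. For the other differences it meant the same direction and side of the threshold. For shares it meant the same direction, and for counts within 1.5 times.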

Other observations

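SMPD3 and FOXA1 can be read side by side in the 2 mice of the HNF4G-KO + FOXA1-OE group that gave 2 libraries of a kind. In the mouse with 2 tumors, the tumor at 5.76 RPKM of FOXA1 held SMPD3 at 8.24 RPKM and the tumor at 23.15 RPKM of FOXA1 held SMPD3 at 1.09 RPKM. In the mouse with a spleen and a fat metastasis, FOXA1 was at 0.53 and 17.93 RPKM and SMPD3 at 11.49 and 4.21 RPKM. The remaining metastases of that group, at 1.30 and 1.55 RPKM of FOXA1, held SMPD3 at 14.08 and 13.57 RPKM. The HNF4G-KO metastases, with FOXA1 lower still at 0.36 and 0.60 RPKM, held SMPD3 at only 8.95 and 8.43 RPKM. Control tumors, at 0.52 to 0.93 RPKM of FOXA1, held it at 1.24 to 2.73 RPKM. ACER2 did not follow one direction in the pairs of the 2 mice, at 5.71 and 1.77 RPKM in the tumors and 1.41 and 2.47 RPKM in the metastases. These libraries come from too few mice for a correlation, and no relation was tested.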
